A study of Mus musculus with 8 samples.

Results

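Adipose stem cells sorted from the inguinal fat pad of male mice were compared with those sorted from the perirenal pad across the whole transcriptome. The comparison took every library of these depots that could be matched to its labels, 2 inguinal (SWAT, subcutaneous white adipose tissue) and 2 perirenal (NWAT, the fat around the kidney), out of 8 samples in the series. Of 17967 gene symbols in the deposited table, 13694 had enough reads to be tested. Both groups are wild-type C57BL/6J males fed chow, with no allele and no treatment, and their age is not stated. The cells were freed with collagenase, treated to lyse red cells and sorted by flow cytometry with antibodies that the labels do not name, and total RNA of the sorted cells was sequenced in bulk. Nothing in the labels says that replicates came from separate mice, or how many mice were pooled, so every p-value here measures only the spread between libraries.

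Adipose stem cells are the fibroblast-like progenitors of the fat stroma that can become adipocytes. They also build the collagen matrix of the pad, secrete growth factors, Wnt modulators and chemokines, and carry receptors for signals from vessels, nerves and immune cells. Inguinal fat lies under the skin of the flank and groin, and perirenal fat lies behind the peritoneum, so the mesenchyme of each pad has its own embryonic history and set of positional transcription factors.

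The deposited counts summed to between 20026413 and 20638724 per library in these depots, and each library had a count for 15858 to 16228 symbols. The 10 most abundant genes took 20.7% and 20.5% of the counts in SWAT and 12.1% in each NWAT library. Levels are given as CPM, counts per 1e6 of the TMM-scaled library total, in the order replicate 1 and replicate 2, and where values stand on either side of "against" the SWAT libraries come first. Differences are log2 fold changes from edgeR's quasi-likelihood test, positive where SWAT was higher, ± an approximate standard error (SE). That error is not an output of the test but was worked back from the fold change and its F statistic. For genes with few or no counts in a depot it is only a rough guide. A gene is called higher or lower only at a Benjamini-Hochberg adjusted p under 0.05 over all genes tested. Replicates correlated at 0.990 and 0.991 and libraries of different depots at 0.961 to 0.963 (Pearson's r of log2 CPM across genes, which are not independent).

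Both depots carried the genes that define adipose stem cells. Pdgfra, the receptor by which these progenitors are usually gated, stood at 1233 and 1174 CPM in SWAT and 1420.1 and 1443 CPM in NWAT. Cd34, a surface sialomucin of stromal progenitors, stood at 1527 and 1322 CPM in SWAT and 1672 and 1632 CPM in NWAT, and Ly6a, which encodes Sca-1, at 847 and 832 CPM in SWAT and 679 and 916 CPM in NWAT. None of these was called (-0.25 ± 0.13, -0.21 ± 0.12 and 0.07 ± 0.16 on the log2 scale). Of 12 such markers 6 were called, all higher in SWAT, among them Col1a1, Col1a2 and Col3a1, and with library totals alone 6 were higher in SWAT and 4 in NWAT. Dcn, the abundant proteoglycan of fibroblasts, was not called either (-0.13 ± 0.12).

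Some genes of other cells differed between the depots. Of 9 mesothelial markers 6 could be tested and 5 were higher in NWAT, and the list summed to 3.51 and 4.27 CPM in SWAT and 13.2 and 11.6 CPM in NWAT. Muc16, a mucin of the mesothelial surface, had no count in SWAT and 1.00 and 0.922 CPM in NWAT, and the uroplakin Upk1b had no count in SWAT and 0.716 and 0.437 CPM in NWAT. Upk3b had 0.110 and 0.105 against 2.19 and 1.84 CPM and Msln, mesothelin, 0 and 0.0527 against 0.907 and 0.631 CPM. Krt19, the fifth, had 3.18 and 3.11 against 6.39 and 6.21 CPM and lost its call when SWAT replicate 2 was left out (0.0506), and Calb2 was at 0 in all 4 libraries. Of 8 mural markers 7 could be tested and 3 were higher in SWAT (Notch3, Myh11 and Kcnj8), with a summed level of 49.8 and 71.3 CPM against 28.0 and 23.8 CPM; the call of Myh11 was lost with limma on log2(FPKM + 1) (0.0635) (adjusted p in brackets, here and at other lost calls). Abcc9, whose product pairs with that of Kcnj8 in a potassium channel and which lies next to it at chr6:142587862-142702766, was not on the list and stood at 81.0 and 113 CPM in SWAT and 3.82 and 2.91 CPM in NWAT (log2 fold change 4.85 ± 0.23, adjusted p = 7.00e-07). Schwann cell markers summed to 33.4 and 39.1 CPM in SWAT and 22.9 and 18.4 CPM in NWAT, and 2 of 4 were called. S100b had 8.06 and 10.5 against 2.39 and 3.06 CPM (1.77 ± 0.22). Mbp, which held most of the sum, had 21.7 and 22.8 against 17.7 and 13.9 CPM (0.50 ± 0.13). The call of Mbp was lost with library totals alone (0.127), with DESeq2 (0.0588) and with limma on log2(FPKM + 1) (0.0833) and log2(FPKM + 0.1) (0.101). It was also lost when SWAT replicate 1, SWAT replicate 2 or NWAT replicate 2 was left out. None of 10 macrophage markers tested was called, and the list summed to 19.2 to 28.3 CPM over the 4 libraries. Haemoglobin genes were high in 1 library: Hba-a1 stood at 3.07 and 8.75 CPM in SWAT and 3.58 and 83.6 CPM in NWAT and was not called (log2 fold change -2.87 ± 1.77, adjusted p = 0.393).

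Endothelial markers summed to 281 and 244 CPM in SWAT and 367 and 347 CPM in NWAT, and most of that was Tek, described with the receptors below. Of 7 tested, Tek was higher in NWAT, and Cdh5, the VE-cadherin gene (124 and 120 against 68 and 81 counts), and Kdr, a VEGF receptor gene (4.003 and 4.17 against 2.53 and 1.65 CPM), were higher in SWAT. The call of Cdh5 was lost when SWAT replicate 1 was left out (0.0697) and when NWAT replicate 1 was left out (0.0933), and that of Kdr with library totals alone (0.0599), with DESeq2 (0.0649), with limma on log2(FPKM + 1) (0.101), with limma on log2(FPKM + 0.1) (0.105), when SWAT replicate 1 was left out (0.0926), when SWAT replicate 2 was left out (0.121) and when NWAT replicate 2 was left out (0.208). Lymphatic endothelial markers summed to 152 and 139 CPM in SWAT and 212 and 215 CPM in NWAT, and 2 of 4 tested were higher in NWAT: Pdpn, podoplanin (149 and 136 against 207 and 209.9 CPM), and Prox1, the lymphatic homeobox factor (1.97 and 1.74 against 3.20 and 3.54 CPM). The call of Pdpn was lost when SWAT replicate 2 was left out (0.0547), and that of Prox1 with DESeq2 (0.17), when SWAT replicate 1 was left out (0.126), when SWAT replicate 2 was left out (0.221), when NWAT replicate 1 was left out (0.117), when NWAT replicate 2 was left out (0.216) and with the replicate block (0.0532). Adipocyte markers summed to 33.6 to 65.7 CPM, and Adipoq, which encodes adiponectin, did not exceed 1.02 CPM. Of 4 adipocyte markers tested, Plin1, the lipid droplet protein perilipin, was higher in NWAT (0.603 and 1.00 against 3.01 and 4.08 CPM), a call lost with no count filter (0.0826), when SWAT replicate 1 was left out (0.212), when SWAT replicate 2 was left out (0.118), when NWAT replicate 1 was left out (0.0706) and when NWAT replicate 2 was left out (0.144). Of 2 skeletal muscle markers tested, Tnnt3, a troponin, was higher in NWAT (6.03 and 4.59 against 7.97 and 12.5 CPM), a call lost when SWAT replicate 2 was left out (0.14) and when NWAT replicate 2 was left out (0.19). Of 2 adrenal cortex markers tested, Star, the steroidogenic cholesterol carrier, was higher in NWAT (3.56 and 4.59 against 9.78 and 6.70 CPM), a call lost when SWAT replicate 1 was left out (0.0553) and when NWAT replicate 1 was left out (0.0559). The kidney tubule water channel gene Aqp2 had 17 and 11 counts in SWAT and 0 and 1 in NWAT and was called higher in SWAT. Whether cells of these other types had a part in the differences below was not tested.

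In all, 2588 genes, 18.9% of those tested, were called: 1242 (9.07%) higher in SWAT and 1346 (9.83%) higher in NWAT. With library totals in place of TMM factors the same libraries gave 747 higher in SWAT and 3199 higher in NWAT, and the median of all genes moved by -0.19 on the log2 scale. The division into higher and lower depends on the scaling, and directions of groups are given below relative to a median of -0.015 over all genes tested. Removing SWAT replicate 1 left 1588 calls and removing SWAT replicate 2 left 1467. Removing NWAT replicate 1 left 1589 and removing NWAT replicate 2 left 1504. Counts "without 1 library" below are the lowest and highest over these 4 fits, each of which has 1 library in a depot. Ranges of the replicates did not overlap for 63.1% of all genes tested.

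A larger share of regulators and secreted genes was called than of all genes tested (18.9%), and the share of metabolic genes was below the 3 other classes. The lists were chosen with earlier results of these data known, so these shares are not independent of the data. Of 450 secreted factors tested, 47.6% were called (120 higher in SWAT, 94 higher in NWAT). Among 361 receptors the share was 38.5% (71 and 68), among 383 transcription factors 38.4% (80 and 67), and among 750 metabolic genes 26.4% (118 and 80). The median log2 fold changes of these classes were 0.063, 0.022, 0.047 and 0.034. With library totals alone the counts became 93 and 124 for secreted factors, 58 and 104 for receptors, 55 and 106 for transcription factors, and 78 and 167 for metabolic genes, so the depot with more calls changed in all 4 classes. Without 1 library at a time they ran from 90 to 105 and 75 to 88, from 48 to 56 and 40 to 45, from 51 to 61 and 44 to 54, and from 73 to 81 and 47 to 52, in the same order. Smaller families differed much more, as the bars of calls per list show. Counts of called members in the lists below are to be read beside 9.07% higher in SWAT and 9.83% higher in NWAT over all genes tested.

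**Figure D1:**
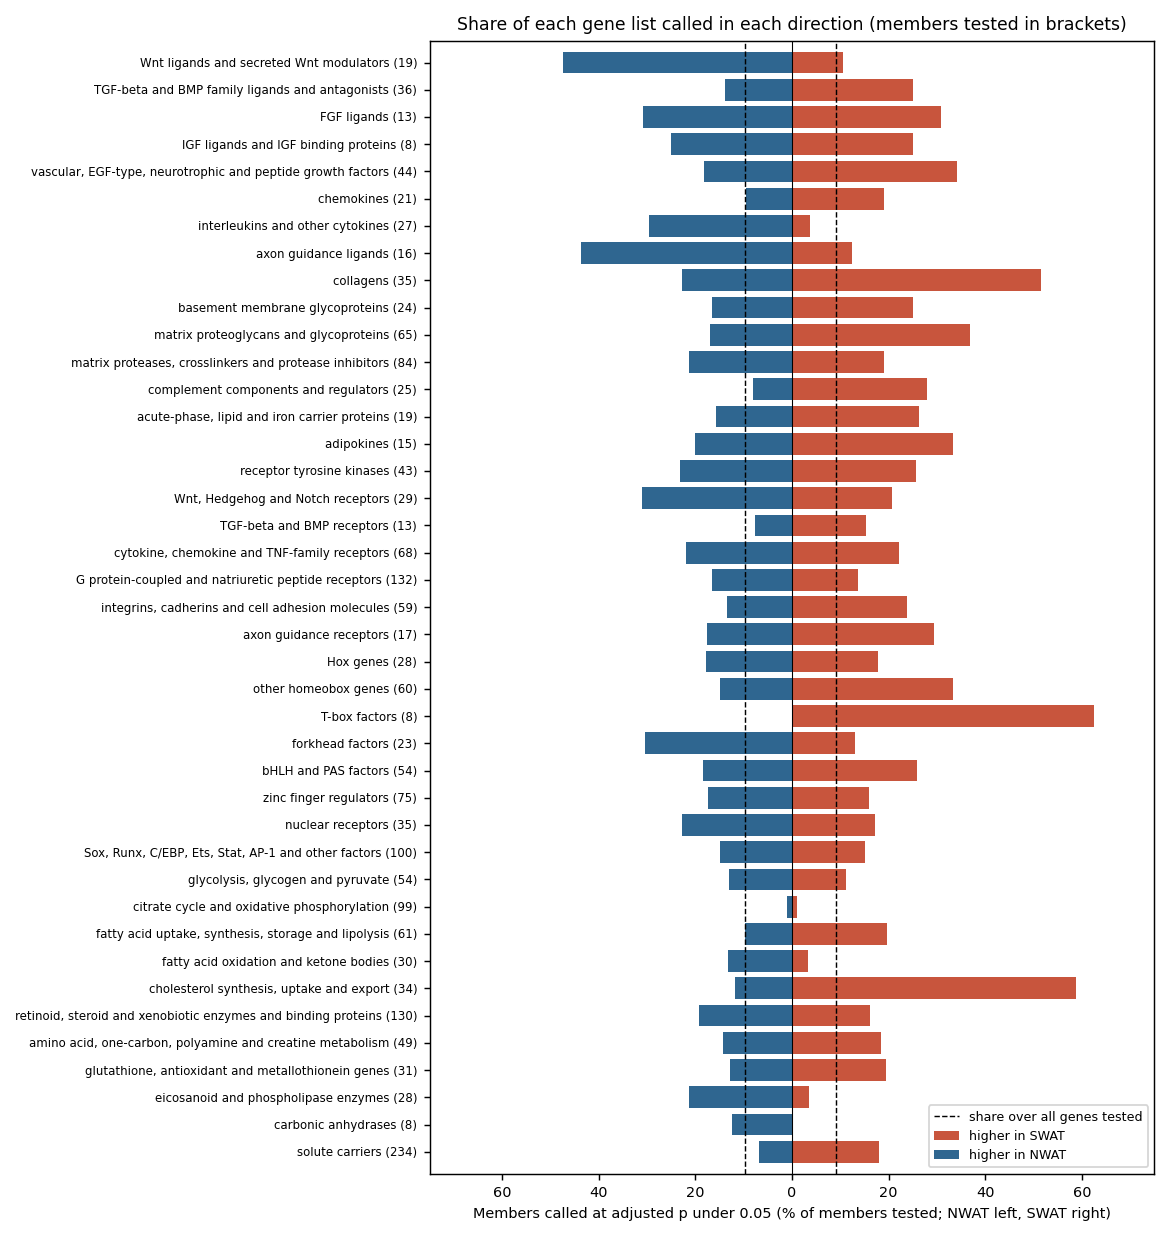
Share of the tested members of each gene list in the 4 classes (rows, number tested in brackets) called at adjusted p under 0.05, with members higher in NWAT drawn to the left and members higher in SWAT to the right, in percent. Dashed lines mark the shares over all genes tested, 9.83% and 9.07%. Among these lists, T-box factors, cholesterol genes and collagens reach furthest to the right, Wnt and axon guidance ligands furthest to the left, and oxidative phosphorylation is nearly empty.

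Transcription factors held the largest log2 fold changes among the genes named by the rule. Tcf21, a bHLH factor of visceral mesenchyme at chr10:22817263-22820143, stood at 0.165 and 0.105 CPM in SWAT and 121 and 104 CPM in NWAT. With 5 counts in SWAT and 4682 in NWAT it was 838-fold higher in NWAT (95% exact interval 359 to 2582, counting error only; adjusted p = 2.18e-09). Wt1, a zinc finger regulator of the coelomic lining and kidney at chr2:105126529-105173614, had no count in either SWAT library and 106 and 135 CPM in NWAT, at least 749-fold higher against a floor of 3 counts per library. Wt1 is also known from mesothelium, whose markers summed to 13.2 and 11.6 CPM in NWAT, and the part of such cells in its level was not tested. Dmrt3, a DM-domain factor, had no count in SWAT and 1.24 and 1.504 CPM in NWAT. In bulk RNA, fewer cells that express such a gene and less RNA of it per cell cannot be told apart. Foxc1, a forkhead factor of mesenchyme, stood at 1.97 and 1.85 CPM in SWAT and 27.3 and 25.2 CPM in NWAT (-3.78 ± 0.15). Zbtb7c, a BTB zinc finger repressor, stood at 4.55 and 5.06 CPM in SWAT and 33.1 and 35.2 CPM in NWAT (-2.83 ± 0.13). Of 23 forkhead genes tested, 7 were higher in NWAT and 3 in SWAT (4 to 6 and 0 to 1 without 1 library). With library totals alone the counts were 9 and 0. Those higher in NWAT included the low-level genes Foxd1 (0 and 0.0527 against 1.19 and 1.26 CPM) and Foxf1 (0.329 and 0.580 against 2.05 and 1.80 CPM).

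Shox2, Tbx15, Osr2 and Gsc were higher in SWAT. Shox2, a homeobox gene of limb skeletal growth at chr3:66971723-66981771, stood at 52.1 and 57.1 CPM in SWAT and 0.191 and 0.388 CPM in NWAT (log2 fold change 7.53 ± 0.21, adjusted p = 2.18e-09). Tbx15, a T-box factor of subcutaneous and limb mesenchyme at chr3:99240348-99354260, stood at 105 and 119 CPM in SWAT and 8.88 and 10.5 CPM in NWAT (log2 fold change 3.53 ± 0.15, adjusted p = 4.04e-08). Osr2, an odd-skipped zinc finger factor of limb and palate, had 245 and 159.6 CPM in SWAT and 21.3 and 16.9 CPM in NWAT (3.40 ± 0.21). Gsc, the goosecoid homeobox gene, had 26.6 and 28.4 against 3.82 and 4.90 CPM (2.66 ± 0.23). In each of these genes both SWAT libraries lay above both NWAT libraries, and ranges did not overlap for 63.1% of all genes tested.

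Of 8 T-box genes tested, 5 were higher in SWAT and none in NWAT, with a median of 1.58, and these counts were the same without any 1 library and under each scaling. Tbx5, the forelimb and heart factor, had 36.0 and 27.7 CPM in SWAT and 0.334 and 0.437 CPM in NWAT, and Tbx1 had 2.74 and 2.37 CPM against no count. Tbx2 and Tbx3, related repressors in limb and mammary development, had log2 fold changes of 2.25 ± 0.24 and 0.90 ± 0.17. Tbx18, by contrast, stood at 27.2 and 27.4 CPM in SWAT and 30.0 and 24.9 CPM in NWAT and was not called (-0.01 ± 0.12).

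Among 60 further homeobox genes, 20 were higher in SWAT and 9 in NWAT (14 to 18 and 6 to 8 without 1 library), with a median of 0.21. Iroquois genes, patterning factors that sit in paired clusters, were low but one-sided. Irx1 at chr13:71958232-71963723 had 8.44 and 7.96 CPM in SWAT and 0.191 and 0 CPM in NWAT, and its cluster neighbour Irx2 at chr13:72624430-72634196 had 11.5 and 11.3 against 0.716 and 0.776 CPM. In the second cluster, Irx3 at chr8:91798511-91801654 had 6.91 and 4.59 against 0.334 and 0.582 CPM and Irx5 at chr8:92357796-92361456 had 7.62 and 6.65 against 0.143 and 0.243 CPM. All 4 were called, as were Lmx1b, the dorsal limb factor, at 8.44 and 7.28 against 0.477 and 0.291 CPM, and Lhx8 at 7.79 and 8.33 against 0.382 and 0.194 CPM. Abcc9, Wt1, Dmrt3, Foxd1, Foxf1, Tbx1, Tbx3, Tbx5, the Iroquois genes, Lmx1b and Lhx8 fall outside the rule for named genes and were chosen after their values were seen.

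Hox genes, which mark position along the trunk, were split: 5 of 28 were higher in SWAT and 5 in NWAT (each 2 to 5 without 1 library), but 4 and 11 with library totals alone. Hoxc10, a posterior gene of the hindlimb level, stood at 53.2 and 59.0 CPM in SWAT and 25.2 and 26.2 CPM in NWAT (1.13 ± 0.11). Its neighbour Hoxc9 had 18.2 and 17.8 against 14.9 and 14.8 CPM and was not called. Hoxa5, an anterior gene, stood at 6.91 and 9.55 CPM in SWAT and 18.7 and 14.0 CPM in NWAT (-0.99 ± 0.18). Hoxb4 (13.2 and 12.2 against 8.30 and 7.57 CPM, 0.68 ± 0.13) and Hoxa2 (2.63 and 2.11 against 6.16 and 5.09 CPM, -1.25 ± 0.22) differed likewise, and these 4 Hox genes kept their calls without any 1 library.

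Among 35 nuclear receptors, all 3 members of the Nr4a family of immediate early orphan receptors were higher in NWAT: Nr4a3 had 80.6 and 70.2 CPM in SWAT and 213 and 278 CPM in NWAT (-1.70 ± 0.16). Nr4a1 had 591 and 522 against 1563 and 1478 CPM (-1.45 ± 0.12). Nr4a2 had 20.2 and 18.4 against 47.1 and 48.6 CPM (-1.31 ± 0.10). Fosb and Jun, AP-1 subunits known to respond to tissue dissociation, were higher in SWAT (0.96 ± 0.15 and 0.78 ± 0.12). Over 20 dissociation stress genes, 7 were higher in SWAT and 3 in NWAT (3 to 6 and 3 without 1 library; 4 and 3 with library totals alone), and the part of tissue handling in them was not tested.

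**Figure D2:**
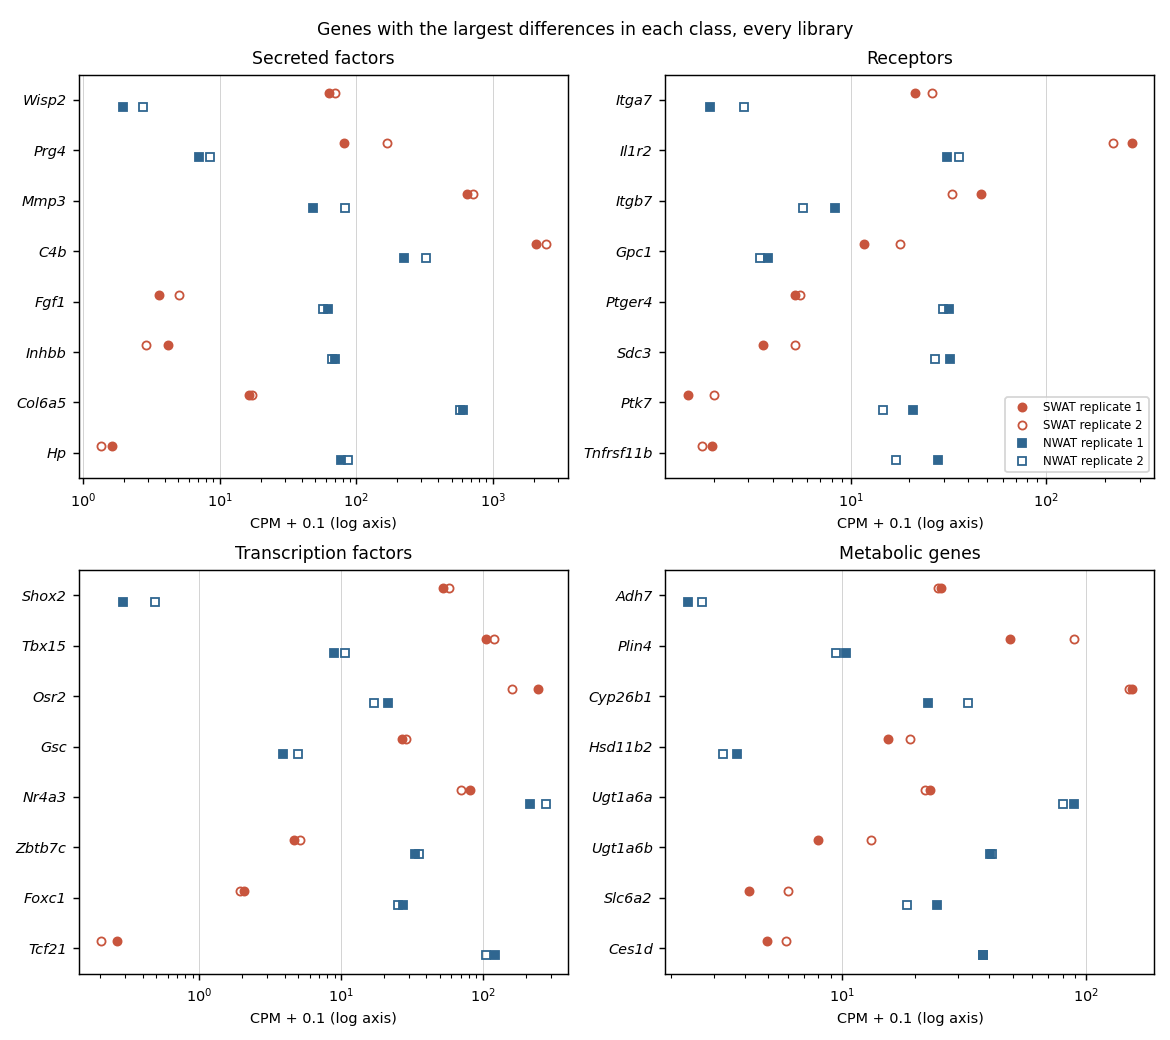
CPM plus 0.1 on a log axis in each of the 4 libraries (circles SWAT, squares NWAT; filled replicate 1, open replicate 2) for the 4 called genes highest in each depot within each class, at a mean log2 CPM of 2 or more. In all 32 genes the ranges of the depots do not overlap, which the choice of called genes with large differences favours. Over all genes tested the share without overlap is 63.1%.

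Secreted signals differed by family. Wnt ligands and secreted Wnt modulators, which steer progenitors towards or away from adipocyte fate, leaned to NWAT: of 19 tested, 9 were higher in NWAT and 2 in SWAT (6 to 8 and 2 to 3 without 1 library), with a median of -0.45. R-spondins amplify Wnt signals. Rspo1 stood at 3.89 and 4.01 CPM in SWAT and 29.4 and 26.8 CPM in NWAT (-2.83 ± 0.13). Rspo3 had 3.34 and 2.90 against 10.5 and 9.66 CPM (-1.69 ± 0.15). Rspo2 had 4.22 and 4.06 against 0.573 and 0.388 CPM and was higher in SWAT (3.09 ± 0.34), as was Wnt2 (56.6 and 46.3 against 33.2 and 27.4 CPM, 0.76 ± 0.13). Wnt2b had 2.19 and 2.27 against 18.9 and 11.0 CPM (-2.74 ± 0.27). Wnt5a, a non-canonical ligand, had 119 and 111 against 192 and 175 CPM (-0.68 ± 0.11). Sfrp1, a secreted Wnt antagonist, had 80.3 and 95.1 against 208 and 215 CPM (-1.27 ± 0.12). On the receptor side, Lgr4, which binds R-spondins, was higher in NWAT (-1.18 ± 0.14) and Lrp5, a Wnt co-receptor, higher in SWAT (1.27 ± 0.10).

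FGF and TGF-beta family ligands pointed both ways. Fgf1, a broad-spectrum FGF, stood at 3.51 and 4.90 CPM in SWAT and 61.8 and 57.0 CPM in NWAT (log2 fold change -3.81 ± 0.15, adjusted p = 2.70e-08). Fgf7 and Fgf10, ligands of the epithelial-type FGF receptor, were higher in SWAT, Fgf7 at 84.8 and 75.5 CPM in SWAT and 29.5 and 30.9 CPM in NWAT (1.41 ± 0.10). Fgf10 stood at 108 and 128 against 63.9 and 69.1 CPM (0.82 ± 0.11). Inhbb, the beta B subunit of activin and inhibin at chr1:119415463-119422248, stood at 4.11 and 2.80 CPM in SWAT and 70.3 and 66.8 CPM in NWAT (log2 fold change -4.31 ± 0.17, adjusted p = 2.27e-08). Ltbp4, which stores latent TGF-beta in the matrix, had 313 and 269.7 against 1045 and 825 CPM (-1.68 ± 0.15). Gdf6, a BMP-type ligand, had 3.18 and 4.22 against 0.811 and 0.485 CPM (2.50 ± 0.34). Tgfb1 had 26.5 and 26.0 against 15.1 and 14.5 CPM (0.83 ± 0.12). The BMP antagonist Chrdl1 (136 and 171 against 67.5 and 52.2 CPM) was higher in SWAT (1.36 ± 0.20). Over 36 ligands and antagonists of this family, 9 were higher in SWAT and 5 in NWAT, and 7 and 7 with library totals alone.

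Vascular, EGF-type and neurotrophic factors differed in both directions. Angpt1, the ligand that stabilises vessels through the Tie2 receptor, stood at 58.5 and 57.0 CPM in SWAT and 10.9 and 12.5 CPM in NWAT (log2 fold change 2.31 ± 0.11, adjusted p = 1.37e-07). Angpt2 and Angpt4, the other ligands of that receptor, were low and also higher in SWAT (2.14 and 1.85 against 0.239 and 0.194 CPM for Angpt2, 2.36 and 5.17 against 0.525 and 0.776 CPM for Angpt4). Gas6, ligand of the TAM receptors, stood at 236 and 256 CPM in SWAT and 55.0 and 63.0 CPM in NWAT (2.06 ± 0.11). Kitl, the stem cell factor, had 47.0 and 59.5 against 19.9 and 20.5 CPM (1.40 ± 0.13). Ntf3, neurotrophin-3, had 25.3 and 28.6 against 5.53 and 7.76 CPM (2.02 ± 0.16). In NWAT the opioid precursor Penk (102 and 92.5 against 388 and 391 CPM, -2.001 ± 0.12) and the vascular peptide Apln (4.77 and 5.22 against 18.6 and 20.6 CPM, -1.97 ± 0.15) were higher. Over all 44 such factors, 15 were higher in SWAT and 8 in NWAT (11 to 12 and 7 to 8 without 1 library), but 11 and 12 with library totals alone. IGF binding proteins divided: Igfbp5 stood at 5309 and 5482 CPM in SWAT and 3529.9 and 2160.4 CPM in NWAT (0.92 ± 0.19). Igfbp3 stood at 119 and 125 CPM in SWAT and 343 and 275 CPM in NWAT (-1.34 ± 0.17), while Igf1 itself, at 421 and 425 against 353 and 389 CPM, was not called (0.19 ± 0.11).

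Cytokines leaned to NWAT. Of 27 interleukins and other cytokines, 8 were higher in NWAT and 1 in SWAT (5 to 7 and 1 without 1 library), with a median of -0.16. Il6 stood at 119 and 81.6 CPM in SWAT and 281 and 361 CPM in NWAT (-1.68 ± 0.23). Ptx3, a pentraxin of innate immunity, stood at 354 and 322 CPM in SWAT and 723 and 1076 CPM in NWAT (-1.41 ± 0.18). Tslp, an alarmin of barrier tissues, had 1.97 and 2.004 against 6.87 and 6.89 CPM (-1.79 ± 0.20). The 1 cytokine higher in SWAT was Il16 (4.22 and 6.38 against 1.62 and 1.65 CPM, 1.69 ± 0.27). Chemokines were mixed: Ccl11, the eosinophil chemokine eotaxin, had 366 and 374 CPM in SWAT and 722 and 856 CPM in NWAT (-1.09 ± 0.13). Cxcl14 had 529 and 569 against 151 and 183 CPM (1.71 ± 0.12). Class 3 semaphorins, guidance cues for axons and vessels, were higher in NWAT for Sema3a (-1.14 ± 0.12), Sema3c (-1.13 ± 0.11), Sema3d (-1.47 ± 0.12) and Sema3e (-0.73 ± 0.14), with Sema3c the highest by count at 418 and 401 CPM in SWAT and 946 and 850.3 CPM in NWAT. Over 16 axon guidance ligands 7 were higher in NWAT and 2 in SWAT (6 to 7 and 0 to 1 without 1 library; 7 and 0 with library totals alone).

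Most complement genes that were called were higher in SWAT. C4b, a component of the classical pathway, stood at 2091 and 2457 CPM in SWAT and 224 and 325 CPM in NWAT (log2 fold change 3.05 ± 0.18, adjusted p = 1.04e-06); it may share reads with its near-identical copy C4a. C2 and C7, other components of the cascade, were higher in SWAT, C2 at 155 and 183 against 62.8 and 76.5 CPM (1.28 ± 0.12). C7 stood at 788 and 739 against 263 and 295 CPM (1.45 ± 0.12). Cd55, an inhibitor of the cascade, was higher in NWAT, at 323 and 266 against 795 and 762 CPM (-1.40 ± 0.13). Over 25 complement genes, 7 were higher in SWAT (4 to 5 without 1 library) and 2 in NWAT. Hp, the haemoglobin-binding acute-phase protein haptoglobin at chr8:109575128-109579172, had the largest difference of any secreted factor named by the rule: it stood at 1.54 and 1.27 CPM in SWAT and 76.9 and 87.6 CPM in NWAT (log2 fold change -5.87 ± 0.17, adjusted p = 2.18e-09). The NWAT libraries held 3.58 and 83.6 CPM of Hba-a1 beside these values of Hp, and a part of blood in them was not tested. Trf, transferrin, was also higher in NWAT (95.1 and 101 against 300.2 and 309.7 CPM, -1.64 ± 0.12).

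Matrix genes were among the most abundant in both depots. Of 35 collagen genes tested, 18 were higher in SWAT and 8 in NWAT (16 to 18 and 5 to 7 without 1 library), with a median of 0.61, and 17 and 8 with library totals alone. Col1a1 stood at 29863 and 26647 CPM in SWAT and 6632 and 6010.4 CPM in NWAT (log2 fold change 2.16 ± 0.16, adjusted p = 2.43e-06). Its partner Col1a2 stood at 26019 and 24486 CPM in SWAT and 8075 and 8134 CPM in NWAT (1.64 ± 0.12). Col3a1, the fibrillar collagen of loose tissue, stood at 54389.6 and 53336 CPM in SWAT and 18284 and 19094 CPM in NWAT (1.53 ± 0.13). In all 3 genes both SWAT libraries lay above both NWAT libraries, beside 63.1% of all genes tested whose ranges did not overlap.

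Type IV and type VI collagens each contained chains that went opposite ways. Basement membrane chains Col4a1, Col4a2, Col4a3 and Col4a4 were higher in SWAT (0.80 ± 0.13, 1.00 ± 0.13, 0.76 ± 0.13 and 0.91 ± 0.11), but Col4a6, at 8.01 and 8.28 CPM in SWAT and 15.8 and 15.04 CPM in NWAT, was higher in NWAT (-0.92 ± 0.12). The beaded-filament chains Col6a1, Col6a2 and Col6a3 were higher in SWAT (0.84 ± 0.12, 1.04 ± 0.12 and 1.45 ± 0.13). Col6a5, an alternative to Col6a3 at chr9:105856070-105962463, stood at 16.5 and 17.1 CPM in SWAT and 602 and 576 CPM in NWAT and was 35.1-fold higher in NWAT (log2 fold change -5.13 ± 0.15, adjusted p = 2.93e-09). Its neighbours on the same chromosome, Col6a4 at chr9:105990318-106096828 (0.274 and 0.422 against 2.05 and 2.09 CPM, -2.55 ± 0.39) and Col6a6 at chr9:105689417-105828246 (175 and 169 against 308 and 282 CPM, -0.78 ± 0.17), were higher in NWAT as well. The call of Col6a6 was lost when SWAT replicate 1 was left out (0.0532), when SWAT replicate 2 was left out (0.0725) and when NWAT replicate 1 was left out (0.0669). Col8a2, a short-chain network collagen, was also higher in NWAT (0.274 and 0.422 against 7.87 and 7.52 CPM, -4.44 ± 0.31).

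**Figure D3:**
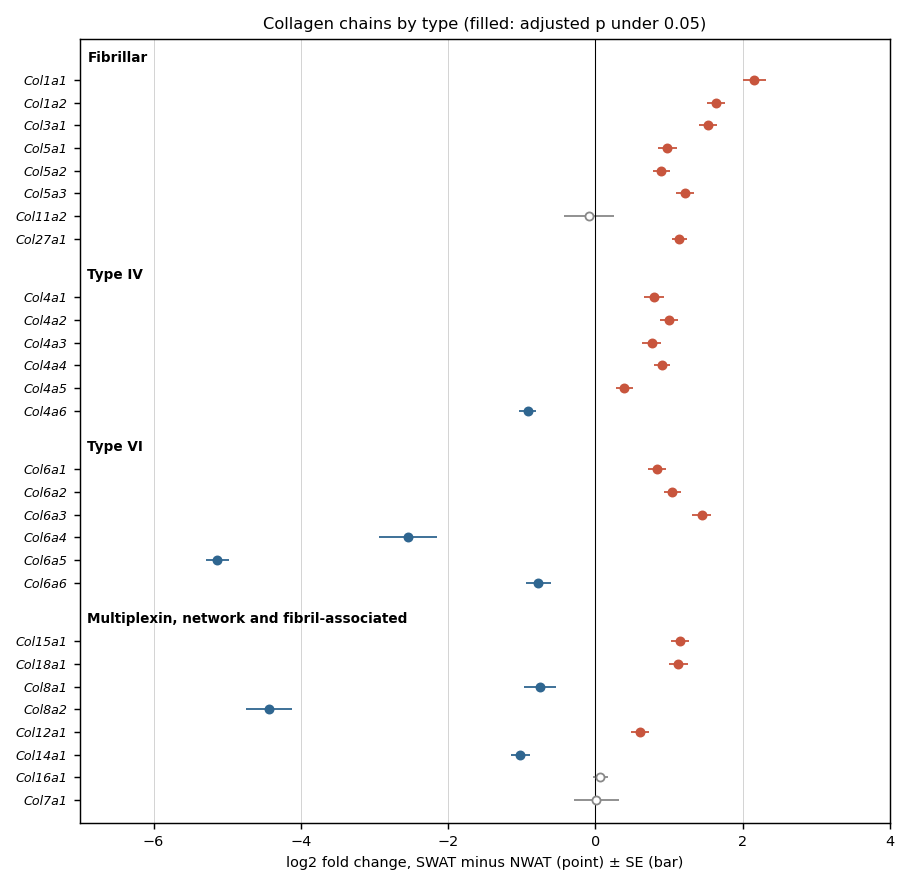
Log2 fold change, SWAT minus NWAT (points) ± approximate SE (bars), of collagen genes grouped by type. Filled points passed an adjusted p of 0.05. Fibrillar chains other than Col11a2 lie between 0.90 and 2.16, while type VI divides into Col6a1 to Col6a3 on the right and Col6a4 to Col6a6 on the left.

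Other matrix genes added single large differences. Wisp2, a CCN family Wnt-responsive adipokine, stood at 63.6 and 70.0 CPM in SWAT and 1.86 and 2.67 CPM in NWAT (log2 fold change 4.88 ± 0.16, adjusted p = 4.70e-09). Prg4, the lubricating proteoglycan of joints, stood at 81.8 and 169 CPM in SWAT and 7.01 and 8.35 CPM in NWAT (log2 fold change 4.03 ± 0.44, adjusted p = 0.00413), with a spread between its SWAT libraries, and its call was lost with the SWAT and NWAT libraries alone (0.0578), when EWAT replicate 1 was left out (0.0628) and when EWAT replicate 2 was left out (0.0639). Mmp3, stromelysin-1, stood at 653 and 717 CPM in SWAT and 48.6 and 83.3 CPM in NWAT (log2 fold change 3.38 ± 0.22, adjusted p = 9.33e-06). On the NWAT side Thbs1, a matricellular activator of TGF-beta, stood at 172 and 204 CPM in SWAT and 1323 and 1319 CPM in NWAT (-2.81 ± 0.17). Matn2, a filament-forming matrilin, stood at 4.003 and 3.06 CPM in SWAT and 48.2 and 47.5 CPM in NWAT (-3.76 ± 0.16). Hmcn2, a hemicentin, stood at 78.8 and 67.0 CPM in SWAT and 501 and 570.0 CPM in NWAT (-2.88 ± 0.18). The aggrecanase Adamts4 stood at 91.6 and 138 CPM in SWAT and 461 and 594 CPM in NWAT (-2.20 ± 0.20). Over 65 matrix proteoglycans and glycoproteins, 24 were higher in SWAT and 11 in NWAT (17 to 21 and 9 to 11 without 1 library), and 20 and 16 with library totals alone.

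Receptors differed in both directions about equally. Il1r2, the decoy receptor that captures interleukin-1 at chr1:40084692-40125230, stood at 275 and 219 CPM in SWAT and 30.9 and 35.7 CPM in NWAT (log2 fold change 2.89 ± 0.17, adjusted p = 1.45e-06). Of receptor genes near it, Il1r1 and Il1rl2, chosen for their role, and Il18r1, named by the rule, were also higher in SWAT. Other genes of this stretch are not reported here. Il1r1, the signalling interleukin-1 receptor at chr1:40222480-40316201, had 402 and 436 against 234 and 232 CPM (0.84 ± 0.11). Il1rl2, the interleukin-36 receptor at chr1:40324589-40367555, had 507 and 478 against 212 and 195 CPM (1.28 ± 0.12). Il18r1 at chr1:40465552-40500854 had 38.7 and 32.0 against 11.4 and 7.42 CPM (1.91 ± 0.19). The shared accessory chain Il1rap, at chr16:26581509-26730128 on another chromosome, was higher in SWAT too (52.8 and 55.2 against 22.2 and 19.99 CPM, 1.36 ± 0.11). Over 68 cytokine, chemokine and TNF-family receptors the count was 15 in each direction (12 to 14 and 9 to 11 without 1 library), and 13 and 21 with library totals alone. Tnfrsf11b, the soluble RANKL decoy osteoprotegerin, led the NWAT side at 1.86 and 1.63 CPM in SWAT and 27.9 and 17.0 CPM in NWAT (log2 fold change -3.68 ± 0.30, adjusted p = 4.61e-05).

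Receptor tyrosine kinases included abundant genes of both depots: 11 of 43 were higher in SWAT and 10 in NWAT (8 and 5 to 7 without 1 library), but 8 and 12 with library totals alone. Egfr, the EGF receptor, stood at 1132 and 1142 CPM in SWAT and 475 and 469 CPM in NWAT (1.27 ± 0.14). Its ligand Btc, betacellulin, was also higher in SWAT (8.23 and 9.12 against 4.87 and 4.51 CPM, 0.89 ± 0.16). Ptk7, a Wnt-linked pseudokinase, stood at 1.37 and 1.90 CPM in SWAT and 20.7 and 14.6 CPM in NWAT (log2 fold change -3.42 ± 0.22, adjusted p = 1.37e-06). Ntrk3, the receptor of neurotrophin-3, had 7.51 and 10.4 against 32.6 and 29.5 CPM (-1.79 ± 0.15), opposite to its ligand Ntf3. Tek, which encodes Tie2, had 259.6 and 223 against 355 and 334 CPM and was called higher in NWAT (-0.51 ± 0.13), opposite to the angiopoietins, but this call was lost when SWAT replicate 2 was left out (0.167), when NWAT replicate 1 was left out (0.114) and when NWAT replicate 2 was left out (0.0645). Epha3, an ephrin receptor, was low in NWAT (0.954 and 0.582 CPM) and had 11.4 and 13.1 CPM in SWAT.

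Adhesion receptors and glypicans showed large single differences. Itga7, a laminin-binding integrin chain, stood at 21.3 and 26.0 CPM in SWAT and 1.81 and 2.77 CPM in NWAT (log2 fold change 3.37 ± 0.20, adjusted p = 6.79e-07). Itgb7, a leukocyte-type integrin chain, stood at 46.1 and 33.0 CPM in SWAT and 8.25 and 5.58 CPM in NWAT (2.51 ± 0.21). Glypicans carry heparan sulfate and bind growth factors: Gpc1 was higher in SWAT (11.6 and 17.8 against 3.67 and 3.35 CPM, 2.06 ± 0.22) and Gpc3 higher in NWAT (194 and 206 against 785 and 805 CPM, -1.99 ± 0.11). Sdc3, a syndecan, had 3.45 and 5.12 against 32.0 and 26.8 CPM (-2.77 ± 0.17). Of 132 G protein-coupled and natriuretic peptide receptors, 18 were higher in SWAT and 22 in NWAT (10 to 13 and 13 to 15 without 1 library), and 92 were not called. With library totals alone the counts were 15 and 32. With TMM factors 13.6% were higher in SWAT and 16.7% in NWAT, beside 9.07% and 9.83% of all genes tested. Npy1r, the neuropeptide Y receptor that restrains lipolysis in fat, stood at 17.6 and 22.6 CPM in SWAT and 6.73 and 5.97 CPM in NWAT (1.66 ± 0.16).

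Genes of 2 prostaglandin E2 receptors differed in opposite directions. Ptger4, the EP4 receptor of prostaglandin E2, stood at 5.10 and 5.43 CPM in SWAT and 31.9 and 29.6 CPM in NWAT (log2 fold change -2.54 ± 0.12, adjusted p = 1.00e-07). Ptger3, the EP3 receptor, stood at 8.83 and 13.1 CPM in SWAT and 3.48 and 4.37 CPM in NWAT (1.48 ± 0.25). The cyclooxygenase Ptgs1 was higher in NWAT at 23.9 and 20.3 against 87.0 and 69.4 CPM (-1.82 ± 0.14). The prostacyclin synthase gene Ptgis was higher there too, at 61.2 and 55.2 against 114 and 96.6 CPM (-0.86 ± 0.13). The inducible Ptgs2 stood at 986 and 556 CPM in SWAT and 1181 and 1303 CPM in NWAT and was not called (-0.69 ± 0.23), nor was Ptges, the prostaglandin E synthase (0.04 ± 0.11). Over 28 eicosanoid and phospholipase genes 6 were higher in NWAT and 1, the autotaxin gene Enpp2, in SWAT (2 to 4 and 1 without 1 library). With library totals alone 12 were higher in NWAT.

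Genes of 2 progenitor states described in mouse fat moved apart. Interstitial progenitors marked by Dpp4 are held to be the less committed state and Icam1-positive preadipocytes the more committed one. Of 14 genes of the Dpp4 type, 9 were higher in NWAT and 1 in SWAT (5 to 10 and 1 without 1 library), with a median of -0.50. Pi16, a peptidase inhibitor of universal fibroblasts, stood at 2056 and 1804 CPM in SWAT and 3754 and 2973 CPM in NWAT (-0.80 ± 0.14). Dpp4 itself, a surface peptidase, stood at 517 and 464 CPM in SWAT and 728 and 654 CPM in NWAT (log2 fold change -0.50 ± 0.12, adjusted p = 0.0114), and its call was lost when SWAT replicate 2 was left out (0.118) and when NWAT replicate 1 was left out (0.114). Of 15 genes of the Icam1 type, 10 were higher in SWAT and 2 in NWAT (7 to 12 and 1 to 2 without 1 library), with a median of 0.78. Icam1 stood at 268 and 309 CPM in SWAT and 143 and 193 CPM in NWAT (0.78 ± 0.15). Pparg, the master regulator of adipogenesis, stood at 36.8 and 49.3 CPM in SWAT and 19.7 and 25.1 CPM in NWAT (0.94 ± 0.18), while Fabp4, at 52.9 and 112 CPM in SWAT and 46.8 and 51.4 CPM in NWAT, was not called (0.75 ± 0.40). The Dpp4-type gene higher in SWAT, Wnt2, is described above among the Wnt ligands. Of the Icam1-type genes higher in NWAT, Gpc3 is described above among the glypicans. Col4a1, Col4a2 and Col15a1 are also counted among the collagens, Cd55 among the complement genes, Cxcl14 among the chemokines and Sema3c among the guidance ligands. Whether the sorted gate held unlike shares of these states was not tested.

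**Figure D4:**
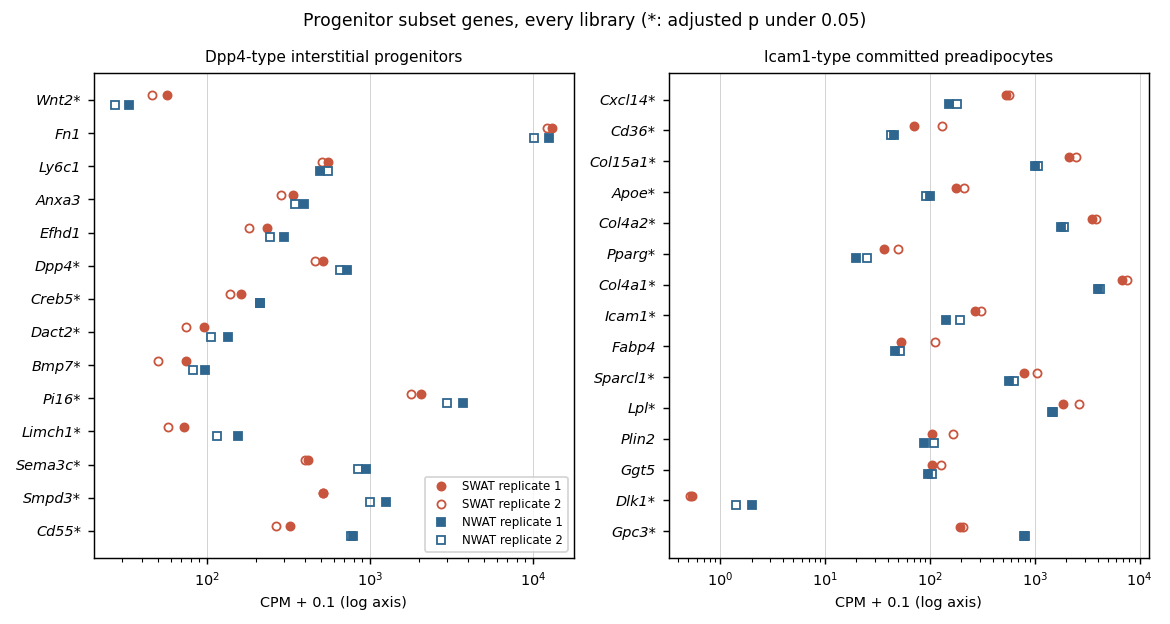
CPM plus 0.1 on a log axis in each of the 4 libraries for the Dpp4-type and Icam1-type genes, with circles for SWAT, squares for NWAT, filled points for replicate 1 and open points for replicate 2; an asterisk marks an adjusted p under 0.05. In the left panel 9 genes have both squares to the right of both circles and passed the test. In the right panel 10 genes have both circles to the right and passed it. Over all genes tested, ranges of the depots did not overlap for 63.1%.

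Cholesterol genes were the metabolic list with the highest share of calls, 70.6% of the 34 tested. Cells make cholesterol from acetyl-CoA through the mevalonate pathway, and the transcription factor SREBP2, with the nuclear factor NF-Y, drives most of its genes when sterols are scarce. Promoter stretches of 5 synthesis genes higher in SWAT are shown, with that of Cyp27a1, a sterol hydroxylase gene higher in NWAT, beside them. Whether SREBP2 or NF-Y had a part in the differences was not tested. Only windows with letters that SREBP or NF-Y are known to bind were used, and each stretch was placed to hold the most motifs. Each runs 5′ to 3′ along the gene's strand, from the RefSeq promoter windows of build GRCm38.p6, and capitals mark the motifs found on either strand, TCACNCCAC (the sterol element) and CCAAT, which reads ATTGG on the other strand.

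Hmgcs1: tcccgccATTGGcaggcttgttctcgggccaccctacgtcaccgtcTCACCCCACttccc
Mvd: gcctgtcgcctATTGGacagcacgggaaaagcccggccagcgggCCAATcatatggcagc
Msmo1: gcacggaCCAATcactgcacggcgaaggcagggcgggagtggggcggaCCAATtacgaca
Cyp51: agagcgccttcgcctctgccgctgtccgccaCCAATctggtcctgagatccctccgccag
Dhcr7: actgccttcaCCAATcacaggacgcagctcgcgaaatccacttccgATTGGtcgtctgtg
Cyp27a1: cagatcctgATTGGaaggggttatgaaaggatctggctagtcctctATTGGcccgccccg

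The stretches are those of Hmgcs1 at chr13:119690168-119690227 (+ strand), Mvd at chr8:122443434-122443493 (- strand), Msmo1 at chr8:64733622-64733681 (- strand), Cyp51 at chr5:4104698-4104757 (- strand), Dhcr7 at chr7:143830119-143830178 (+ strand) and Cyp27a1 at chr1:74713455-74713514 (+ strand). All lie upstream of the start site that the RefSeq promoter window was built on, which for Dhcr7 and Cyp27a1 lies inside the annotated gene span. The motifs do not overlap each other in these stretches. Hmgcs1 holds both motifs, and the 5 other stretches hold CCAAT alone, Cyp27a1 included. Holding a motif was a condition for a stretch, so it is no result. Stretches with CCAAT were also found for Pmvk, Ebp and Sc5d, synthesis genes that were not called. The same held for Vldlr and Insig2, which were called higher in NWAT. The call of Vldlr was lost when SWAT replicate 2 was left out (log2 fold change -0.53). Over all 32851 promoter windows of 300 bases, 1.24% held TCACNCCAC and 37.4% held CCAAT. A window was matched for 22 of the 34 cholesterol genes tested, which is under 80%, so no share over the list is given.

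Of the 34 genes, 20 were higher in SWAT and 4 in NWAT (16 to 17 and 2 to 4 without 1 library), with a median of 0.63, and 18 and 5 with library totals alone. Hmgcs1, which makes HMG-CoA, stood at 138 and 161 CPM in SWAT and 83.0 and 89.4 CPM in NWAT (log2 fold change 0.80 ± 0.13, adjusted p = 0.00118). Fdps, which makes farnesyl diphosphate, had 33.6 and 29.8 against 13.0 and 15.4 CPM (1.16 ± 0.12). Fdft1, squalene synthase, had 37.1 and 31.9 against 13.3 and 16.1 CPM (1.23 ± 0.14). Sqle, the rate-limiting epoxidase, had 44.8 and 39.9 against 21.1 and 19.8 CPM (1.05 ± 0.12). Cyp51, the lanosterol demethylase, had 56.4 and 58.3 against 31.7 and 32.2 CPM (0.84 ± 0.10). In all of these the SWAT libraries lay above the NWAT libraries, beside 63.1% of all genes tested whose ranges did not overlap.

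Export and oxidation were uneven. The sterol exporter Abcg1 had 4.11 and 4.22 against 0.525 and 0.728 CPM (2.72 ± 0.32), but Abca1, which exports sterol to lipid-poor apolipoprotein, was not called (-0.06 ± 0.16). Ch25h and Cyp27a1, which make oxysterols, were higher in NWAT (0.768 and 1.90 against 6.44 and 5.39 CPM for Ch25h, -2.14 ± 0.34, and 68.2 and 64.1 against 109 and 95.1 CPM for Cyp27a1, -0.63 ± 0.11). Srebf2, which encodes SREBP2, stood at 256 and 233 CPM in SWAT and 182 and 169 CPM in NWAT and was called higher in SWAT (log2 fold change 0.48 ± 0.12, adjusted p = 0.013), a call that was lost with library totals alone (0.0683), with limma on log2(FPKM + 1) (0.0723), with limma on log2(FPKM + 0.1) (0.0711), when SWAT replicate 1 was left out (0.118), when NWAT replicate 1 was left out (0.0546) and when NWAT replicate 2 was left out (0.129).

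**Figure D5:**
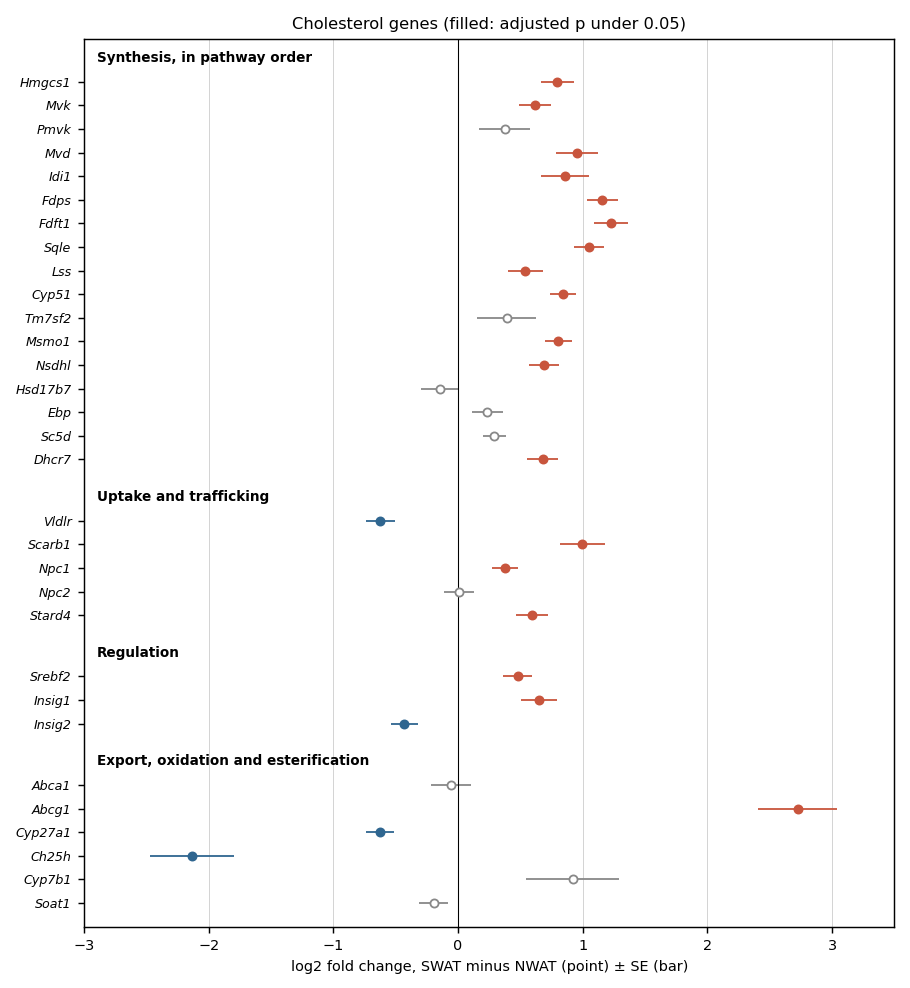
Log2 fold change, SWAT minus NWAT (points) ± approximate SE (bars), of selected genes of cholesterol synthesis in pathway order, then uptake, regulation and export. Filled points passed an adjusted p of 0.05. The synthesis genes drawn lie between -0.15 and 1.23.

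Fatty acid genes were mixed once scaling is considered: of 61 genes of uptake, synthesis and storage, 12 were higher in SWAT and 6 in NWAT (7 to 11 and 2 to 4 without 1 library), but 10 and 11 with library totals alone. Plin4, a lipid droplet coat protein, stood at 48.6 and 89.1 CPM in SWAT and 10.4 and 9.36 CPM in NWAT (log2 fold change 2.80 ± 0.28, adjusted p = 0.000354). Fasn, fatty acid synthase, had 254 and 240.4 against 158 and 158 CPM (0.65 ± 0.11). Acacb, the acetyl-CoA carboxylase that guards mitochondrial entry, had 10.3 and 12.2 against 4.63 and 3.06 CPM (1.54 ± 0.20). Cpt1a, the carnitine transferase that admits fatty acids to mitochondria, was higher in NWAT (90.9 and 105 against 180.2 and 152 CPM, -0.76 ± 0.12). Oxidative phosphorylation and the citrate cycle held few calls: 1 of 99 genes was called in each direction (Cox8b in SWAT, Atp5s in NWAT), 2.02% against 18.9% of all genes. Cox8b lost its call when SWAT replicate 2 was left out (0.072) and Atp5s with DESeq2 (0.1), when SWAT replicate 1 was left out (0.0512), when SWAT replicate 2 was left out (0.27) and when NWAT replicate 1 was left out (0.287). The most called in any alternative were 4 in SWAT and 9 in NWAT, the latter with library totals alone and on the FPKM values.

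Retinoid genes of both makers and breakers of retinoic acid differed between depots. Retinol is oxidised to retinal and then to retinoic acid, and CYP26 enzymes break the acid down. Rdh10, which makes retinal, had 14.97 and 12.4 against 33.6 and 32.9 CPM (-1.28 ± 0.12). Aldh1a3, which makes retinoic acid, stood at 121 and 121 CPM in SWAT and 358 and 288 CPM in NWAT (log2 fold change -1.41 ± 0.12, adjusted p = 1.09e-05). Both were higher in NWAT, as was Rarb, a receptor gene that retinoic acid itself induces (-0.80 ± 0.15). Cyp26b1, at 154 and 149 CPM in SWAT and 22.5 and 32.8 CPM in NWAT (log2 fold change 2.45 ± 0.16, adjusted p = 2.96e-06), and the retinol dehydrogenases Adh7 (25.4 and 24.6 against 2.24 and 2.57 CPM, 3.37 ± 0.16) and Dhrs9 (9.60 and 7.65 against 3.67 and 2.91 CPM, 1.39 ± 0.22) were higher in SWAT. These genes were picked for their step in the pathway after their values were seen. Of all 130 retinoid, steroid and xenobiotic genes, 21 were higher in SWAT and 25 in NWAT (13 to 17 and 14 to 17 without 1 library), but 15 and 38 with library totals alone.

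Other enzymes and transporters named by the rule complete the metabolic picture. Hsd11b2, which inactivates glucocorticoids, stood at 15.3 and 19.0 CPM in SWAT and 3.63 and 3.15 CPM in NWAT (2.34 ± 0.24). Ces1d, a carboxylesterase, stood at 4.83 and 5.80 CPM in SWAT and 37.6 and 37.7 CPM in NWAT (-2.82 ± 0.13), and the glucuronosyltransferase genes Ugt1a6a (22.9 and 21.8 against 89.0 and 80.01 CPM) and Ugt1a6b (7.90 and 13.0 against 40.4 and 41.2 CPM) were also higher in NWAT, though they share exons and their reads cannot be divided with certainty. Slc6a2, the noradrenaline transporter, stood at 4.06 and 5.91 CPM in SWAT and 24.5 and 18.3 CPM in NWAT (log2 fold change -2.10 ± 0.20, adjusted p = 3.18e-05). Slc16a7, a monocarboxylate transporter, stood at 26.2 and 28.2 CPM in SWAT and 5.87 and 6.45 CPM in NWAT (2.14 ± 0.14). Of the solute carriers tested, 17.9% were higher in SWAT and 6.84% in NWAT, beside 9.07% and 9.83% of all genes tested. Over 234 solute carriers 42 were higher in SWAT and 16 in NWAT (20 to 24 and 12 to 14 without 1 library), a balance that turned to 22 and 41 with library totals alone.

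Called genes were spread over the genome. RefSeq positions (GRCm38.p6) were found for 13595 of the genes tested, and among autosomes and the X chromosome the share called ran from 14.7% on chromosome 17 to 22.8% on chromosome 1. The median gene length was 37.1 kb for genes higher in NWAT, 23.8 kb for genes higher in SWAT and 24.1 kb for all genes tested. Promoter windows matched 78.7% of genes tested, 74.2% of those higher in SWAT and 75.6% of those higher in NWAT, so a comparison of promoter CpG or GC content is void.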

How the data were processed

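Total RNA of sorted adipose stem cells was sequenced in bulk, in 8 samples of 4 depots with 2 replicates each. The authors deposited estimated counts for each gene symbol, per the file headers and without normalization, of which 31.7% to 33.1% per library are not whole. Their FPKM values, also deposited, divide by gene length and library size. The submitters' processing notes name GRCm38.p6, Cell Ranger and Seurat without versions or roles. No source used here gives the aligner, counter, annotation or strand setting, so reads of overlapping, antisense or near-identical genes may be misassigned. Per file, 2 columns match no label and were left out, so the mesenteric depot is not analysed here. A column's depot was read from its letter, which starts 1 depot abbreviation only.

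Counts were rounded and tested in R 4.3.3 with edgeR 4.0.16: genes passing filterByExpr (minimum count 10, total 15), TMM factors (0.893 and 0.919 in SWAT, 1.04 and 1.03 in NWAT), 1 coefficient per depot over 6 libraries with the 2 EWAT (epididymal) libraries lending only their spread (3 residual degrees of freedom), robust quasi-likelihood test of SWAT minus NWAT, Benjamini-Hochberg adjustment over 13694 genes. The fit was tested on simulated data. Alternatives were RLE factors, library totals alone, DESeq2 1.42.0, no or a stricter count filter, the SWAT and NWAT libraries alone, limma 3.58.1 on log2(FPKM + 1) and log2(FPKM + 0.1), each library left out, and the replicate number as a block. DESeq2's missing adjusted p-values stayed missing. Replicates differed by more than sampling noise in every depot. Depth bounds precision: 3 counts, the limit that a count of 0 allows, are 0.161 CPM in SWAT and 0.144 CPM in NWAT.

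Members and gene lists were chosen with earlier results of these data known, by family or textbook role. The naming rule took, in each of 4 classes, among called genes whose log2 CPM averaged 2 or more, the 4 highest in each depot, and up to 2 per direction in each smaller list. Genes outside it are named for their role in a pathway or cell type or after their values were seen. Of 11 symbols turned into dates, none is named. Some genes of the lists are counted but not reported here by name. Gene positions and promoter windows come from RefSeq (GRCm38.p6), where 17777 symbols matched by name or synonym.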

Additional observations from a re-analysis of the deposited data

How the results depend on the processing

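Of the 247 called genes that the naming rule or a role selected, 238 had a value under each of 15 alternatives, and none of the 247 reversed its direction where it had one. Of the 238, 201 kept their calls throughout, and calls lost by those of the 247 that the text names are given beside them. Library totals without TMM factors gave 3946 genes called, 747 higher in SWAT and 3199 in NWAT, with 104 receptors and 106 transcription factors higher in NWAT and 78 and 167 metabolic genes higher in SWAT and NWAT. On log2(FPKM + 1) limma called 671 genes higher in SWAT and 2784 in NWAT, with 51 transcription factors and 73 metabolic genes higher in SWAT and 149 metabolic genes higher in NWAT. On log2(FPKM + 0.1) these were 663, 2822, 48, 72 and 153. Neither scaling nor FPKM carries TMM factors, and the cause of the shift was not tested further. Deviations of replicate 1 from its depot mean correlated across genes at 0.0375 between SWAT and NWAT. With so few libraries a depot, this value cannot decide whether libraries of the same number shared a mouse or batch. The replicate block gave 2595 calls, 1253 higher in SWAT and 1342 in NWAT. Without 1 library in turn, EWAT included, 1467 to 3323 genes were called, 690 to 1651 higher in SWAT and 755 to 1707 in NWAT. The same ranges were 48 to 86 and 40 to 70 for receptors, 51 to 97 and 44 to 75 for transcription factors, 73 to 142 and 47 to 101 for metabolic genes, and 90 to 129 and 75 to 101 for secreted factors. With 1 library left in a depot, that library is assumed to vary like the other depots. Depth limits genes near 3 counts per library.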
